A study of Arabidopsis thaliana with 21 samples.

Results

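Aux/IAA genes encode the short-lived repressors of auxin-responsive transcription. The 10 genes described here were chosen by locus: IAA1 (AT4G14560), IAA2 (AT3G23030), IAA3 (AT1G04240), IAA5 (AT1G15580), IAA6 (AT1G52830), IAA7 (AT3G23050), IAA14 (AT4G14550), IAA17 (AT1G04250), IAA19 (AT3G15540) and IAA29 (AT4G32280). The choice was made with earlier results of these data known. Counts of the 10 beside those of all genes or of the other 19 Aux/IAA genes are therefore a description. All 10 were among the 24100 loci listed in the deposited counts, and all 10 were among the 19589 loci with enough counts to be tested. The study sequenced polyadenylated RNA from whole Arabidopsis thaliana seedlings carrying mutations in ASIL1 and ASIL2, a pair of trihelix DNA-binding proteins. Seedlings were 14 days old and had grown at 22 °C in 16 h of light on MS medium that lacked sucrose. There were 7 groups of 3 libraries, called biological replicates in the design text. In the Columbia-0 ecotype these were wild type (Col-0), asil1-1, asil2-1 and the double mutant asil1-1 asil2-1. In Landsberg erecta they were wild type (Ler) and asil2-2. The last group was asil1-1 asil2-2, for which the labels name both ecotypes, so it was set against each wild type. A seedling holds many cell types, and in such bulk RNA fewer cells of a type and less RNA per cell cannot be told apart.

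As background, an Aux/IAA protein binds an auxin response factor (ARF) at its target promoter and brings in corepressors of the TOPLESS (TPL) group. Auxin joins the Aux/IAA protein to a TIR1/AFB receptor, an F-box subunit of an SCF ubiquitin ligase, and the repressor is then degraded. Many Aux/IAA genes are themselves quickly induced by auxin, so their transcripts are widely read as an auxin response and form a negative feedback on it.

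In the RefSeq TAIR10.1 genome 6 of the 10 genes form 3 pairs of neighbours that are transcribed away from each other with no coding gene in between. IAA3 (chr1:1128149-1129689, minus strand, 3 exons) and IAA17 (chr1:1136078-1138663, plus strand, 5 exons) are 6388 bases apart. IAA14 (chr4:8347822-8350263, minus strand, 5 exons) and IAA1 (chr4:8360996-8362033, plus strand, 2 exons) are 10732 bases apart. IAA2 (chr3:8180646-8182095, minus strand, 2 exons) and IAA7 (chr3:8194606-8197161, plus strand, 5 exons) are 12510 bases apart. IAA5 (chr1:5365512-5366497, minus strand, 3 exons), IAA6 (chr1:19672476-19673652, minus strand, 3 exons), IAA19 (chr3:5264001-5265695, plus strand, 3 exons) and IAA29 (chr4:15583332-15584903, plus strand, 4 exons) each stand apart from the rest of the family.

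The 250 bases before each annotated start were searched on both strands for the auxin response elements TGTCTC and TGTCGG, which ARF proteins bind, for the G-box CACGTG, which PIF and other bHLH and bZIP factors bind, and for GTGATT, a GT-box element. The element TGTCTC stood in 4 of the 10 promoters and in 10.9% of all 27443 windows of the same length. TGTCGG stood in 2 of 10 against 4.16% of all windows, CACGTG in 2 of 10 against 6.49%, and GTGATT in 0 of 10 against 15.6%. IAA2, IAA3, IAA14, IAA17 and IAA29 held none of the 4 motifs. The promoters of the other 5 genes hold all the matches and are shown for that reason, 5′ to 3′ on the gene's strand up to the base before the start, with matches in capitals in either orientation (GAGACA and CCGACA are the reverse complements of TGTCTC and TGTCGG).
IAA1, chr4:8360746-8360995, plus strand: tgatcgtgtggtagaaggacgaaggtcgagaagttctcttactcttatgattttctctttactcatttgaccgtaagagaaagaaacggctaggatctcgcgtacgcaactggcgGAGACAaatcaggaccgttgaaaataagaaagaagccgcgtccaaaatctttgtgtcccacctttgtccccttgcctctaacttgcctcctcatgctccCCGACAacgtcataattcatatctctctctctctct
IAA5, chr1:5366498-5366747, minus strand: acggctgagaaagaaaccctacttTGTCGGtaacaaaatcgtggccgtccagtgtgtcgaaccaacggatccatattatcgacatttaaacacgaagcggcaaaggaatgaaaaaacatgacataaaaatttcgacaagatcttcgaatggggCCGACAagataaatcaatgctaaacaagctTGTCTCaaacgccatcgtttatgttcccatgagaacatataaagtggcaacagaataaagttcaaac
IAA6, chr1:19673653-19673902, minus strand: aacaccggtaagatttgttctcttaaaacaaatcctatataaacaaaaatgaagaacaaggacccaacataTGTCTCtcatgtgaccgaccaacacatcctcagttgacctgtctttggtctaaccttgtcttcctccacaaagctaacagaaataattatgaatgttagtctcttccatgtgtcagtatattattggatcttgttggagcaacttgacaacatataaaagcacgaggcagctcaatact
IAA19, chr3:5263751-5264000, plus strand: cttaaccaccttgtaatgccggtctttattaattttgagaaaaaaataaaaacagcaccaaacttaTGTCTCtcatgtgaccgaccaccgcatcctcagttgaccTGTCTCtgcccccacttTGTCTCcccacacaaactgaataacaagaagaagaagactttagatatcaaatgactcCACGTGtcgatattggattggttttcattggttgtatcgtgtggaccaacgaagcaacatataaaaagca
IAA7, chr3:8194356-8194605, plus strand: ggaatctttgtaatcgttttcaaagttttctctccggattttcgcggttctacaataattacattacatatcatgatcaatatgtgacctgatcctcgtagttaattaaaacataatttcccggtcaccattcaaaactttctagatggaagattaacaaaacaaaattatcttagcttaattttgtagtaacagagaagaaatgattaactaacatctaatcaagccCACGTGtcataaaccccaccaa

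IAA19 held 3 copies of TGTCTC and a G-box. IAA5 held TGTCTC and 2 copies of TGTCGG, IAA1 held both elements once, and IAA6 held TGTCTC once. IAA6 and IAA19 also shared an exact run of 23 bases that contains TGTCTC, printed here because it was the longest common to any of the 45 pairs of promoters:
IAA6 and IAA19: taTGTCTCtcatgtgaccgacca
The run starts 181 bases before the start of IAA6 and 186 bases before that of IAA19, and the next longest run, between IAA17 and IAA29, had 13 bases. These matches are a description of letters in a window and not of binding.

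Libraries held 6.52 to 28.79 M counts (1e6) over 20305 to 21901 loci, so that 3 counts correspond to 0.104 to 0.46 CPM, the count per 1e6 counts of a library. CPM values are scaled here by the TMM method, which matches libraries on the bulk of their genes. ASIL1 was at 33.6 ± 1.25 CPM in Col-0 and 33.0 ± 3.32 in Ler (SD, n = 3), and at 4.83 ± 0.314, 8.0 ± 0.638 and 5.66 ± 1.13 in asil1-1, asil1-1 asil2-1 and asil1-1 asil2-2. ASIL2 RNA was above wild type in 3 of the 4 groups labelled as asil2 mutants. It was at 435 ± 54.5 CPM in asil2-1 and 168 ± 32.5 in asil1-1 asil2-1 against 38.1 ± 8.97 in Col-0, and at 75.9 ± 15.5 in asil1-1 asil2-2 and 24.4 ± 6.45 in asil2-2 against 31.6 ± 4.15 in Ler. ASIL2 RNA was thus not lowered in those 3 groups. The labels name a genotype and not an RNA level, and the genotype was not tested here. Group names below, double mutant included, are those of the labels. Within a group no library was a copy of another, and copies between groups were not looked for.

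Measured per kilobase of exon, which allows genes to be compared, Col-0 seedlings held IAA7 at 90.6 ± 7.23 CPM per kb, followed by IAA2 at 58.7 ± 10.5, IAA17 at 32.2 ± 4.08 and IAA3 at 23.7 ± 2.61 (mean ± SD, n = 3). IAA1 at 10.4 ± 0.969, IAA14 at 7.8 ± 0.702, IAA19 at 5.44 ± 1.18 and IAA29 at 4.11 ± 0.766 CPM per kb formed a middle range. IAA6 at 1.74 ± 0.47 and IAA5 at 1.24 ± 0.28 were lowest. Of the neighbours in this order, IAA19 and IAA29, and IAA6 and IAA5, overlapped within 1 SD. In Ler the order was led by IAA2 at 64.1 ± 8.2 and IAA7 at 51.0 ± 11.9 CPM per kb, which overlapped, and IAA5 was again last at 0.658 ± 0.416. Across all 10 genes Col-0 libraries summed to between 344 and 395 CPM, asil1-1 to 232 to 266, asil2-1 to 255 to 316 and their double mutant to 226 to 257. The sums were 249 to 342 CPM in Ler, 202 to 263 in asil2-2 and 222 to 256 in asil1-1 asil2-2. No mutant library reached the lowest Col-0 sum, while asil2-2 and asil1-1 asil2-2 overlapped Ler.

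**Figure D1:**
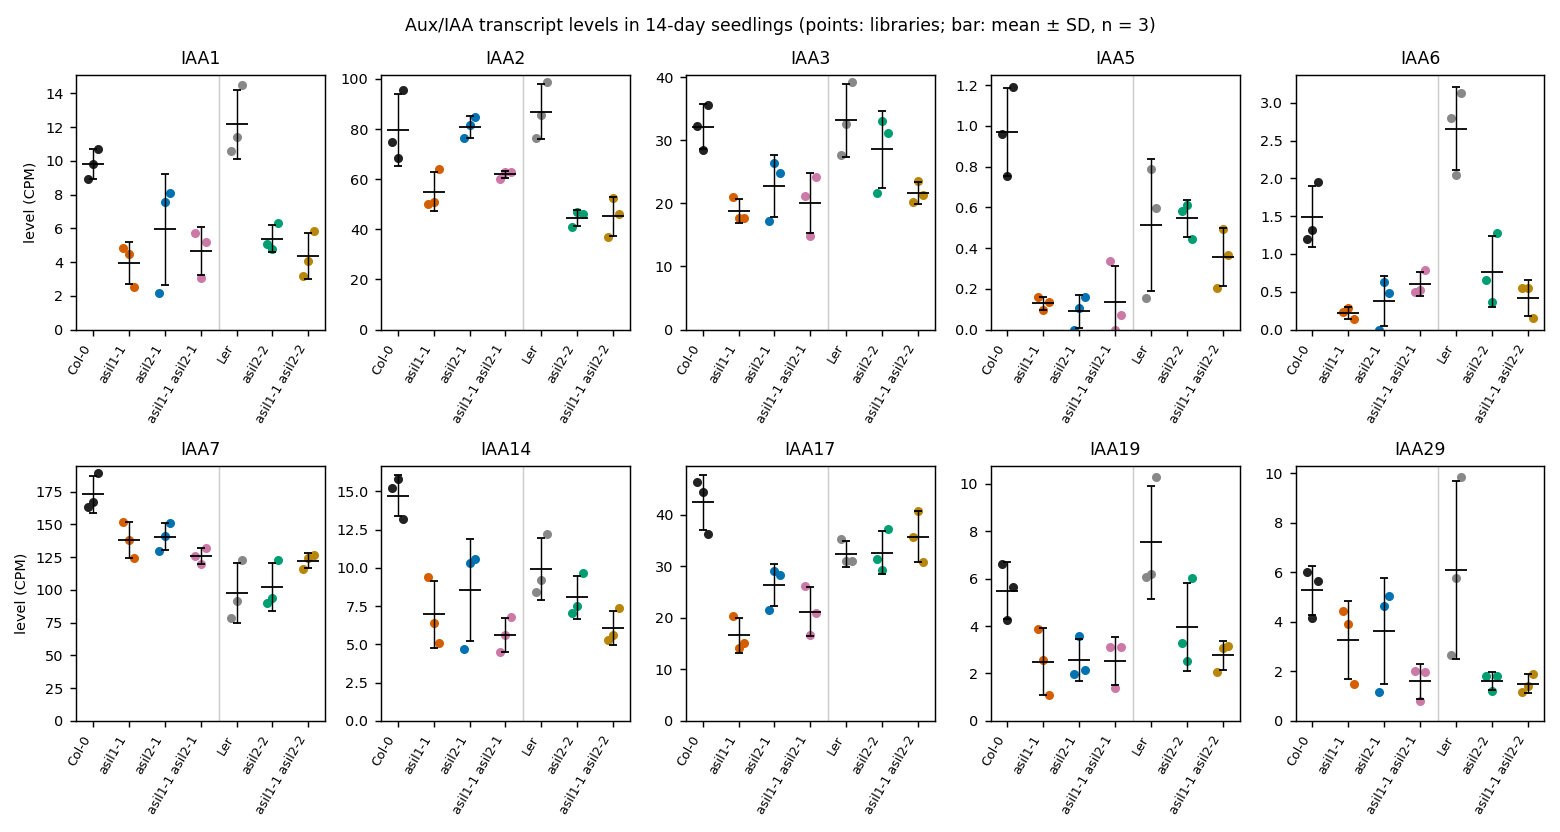
Level of each of the 10 genes in CPM (y axis, linear, from 0) in the 21 libraries, with the groups along the x axis; points are libraries and bars the mean ± SD of 3. The means of IAA1 and IAA6 are lower in all 5 mutants than in either wild type, IAA7 is lower in every Ler than in every Col-0 library, and IAA2 is at 80.9 CPM in asil2-1 but at 44.6 CPM in asil2-2.

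The asil1-1 mutation without an asil2 mutation was addressed by asil1-1 against Col-0. ASIL1 RNA fell in this comparison but was not absent. ASIL2 RNA was not called in it, although its levels in the groups did not overlap. There, 7 of the 10 genes fell and 0 rose at an adjusted p below 0.05 (edgeR quasi-likelihood test, Benjamini-Hochberg over 19589 genes), where 8.35% of all tested genes were called lower and 8.91% higher. The median log2 change of the 10 was −1.06, against 0.025 for all genes tested. In 9 of the 10 the groups did not overlap. The share of all tested genes without overlap was not computed, so this count and those below cannot be set against it. IAA17, also known as AXR3, whose stabilised mutants lack gravitropism and root hairs, read 46.4, 44.5 and 36.3 CPM in Col-0 and 20.4, 14.1 and 15.2 CPM in asil1-1. Every asil1-1 library was below every Col-0 library, a log2 change of −1.35 ± 0.17 (SE, adjusted p = 4.57e-05), or 2.55-fold lower. IAA1, one of the earliest auxin-induced genes, read 8.9, 9.82 and 10.7 CPM in Col-0 and 4.82, 4.47 and 2.55 CPM in asil1-1. These groups did not overlap either, and the log2 change was −1.28 ± 0.36 (adjusted p = 0.0194).

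IAA14, or SOLITARY-ROOT, the repressor that blocks lateral root founding when it is stabilised, read 15.2, 15.8 and 13.2 CPM in Col-0 and 9.4, 6.38 and 5.1 CPM in asil1-1, with a log2 change of −1.05 ± 0.26 (adjusted p = 0.00935). IAA3, or SHY2, which limits the size of the root meristem, read 32.3, 28.5 and 35.6 CPM in Col-0 and 21, 17.7 and 17.7 CPM in asil1-1, with a log2 change of −0.77 ± 0.19 (adjusted p = 0.0108). IAA2 fell by the smallest amount among the 7, with a log2 change of −0.54 ± 0.14 (adjusted p = 0.00994). The groups did not overlap in these 3 genes.

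The least abundant genes had the largest fitted changes and the fewest counts behind them. IAA5 had 8, 8 and 11 counts in the Col-0 libraries and 2, 1 and 1 in asil1-1, and its log2 change was −2.81 ± 0.78 (adjusted p = 0.0176). IAA6, known as SHY1 from its effect on light-grown seedlings, had 10, 14 and 18 counts in Col-0 and 3, 3 and 1 in asil1-1, with a log2 change of −2.67 ± 0.70 (adjusted p = 0.0133). Neither gene overlapped between the groups, but their size rests on single counts. IAA7, IAA19 and IAA29 did not pass the test, with log2 changes of −0.32 ± 0.14, −1.06 ± 0.41 and −0.64 ± 0.48. Of these IAA29 overlapped with Col-0. Without replicate 3 of asil1-1, which held the lowest summed level of its group, 3 genes remained called, namely IAA2, IAA3 and IAA17.

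Libraries labelled asil2-1 showed 6 of the 10 genes lower than Col-0 and 0 higher, where 19.3% of all tested genes were called lower and 21.9% higher. The median log2 change of the 10 was −0.69, against 0.019 for all genes tested, and 8 genes did not overlap. IAA17 read 21.6, 29.1 and 28.4 CPM in asil2-1, all below Col-0, with a log2 change of −0.68 ± 0.17 (adjusted p = 0.00269). IAA14 read 4.69, 10.3 and 10.6 CPM, again all below Col-0, with a log2 change of −0.77 ± 0.25 (adjusted p = 0.0172). IAA5 had 0, 2 and 2 counts in asil2-1 and a log2 change of −3.25 ± 0.76 (adjusted p = 0.00202). IAA3, IAA6 and IAA19 fell with log2 changes of −0.48 ± 0.19 (adjusted p = 0.0437), −1.86 ± 0.60 (adjusted p = 0.0172) and −1.05 ± 0.40 (adjusted p = 0.0414).

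IAA2 did not move in this comparison beyond its spread. It read 75, 68.4 and 95.7 CPM in Col-0 and 76.3, 81.6 and 84.8 CPM in asil2-1, within the Col-0 range, with a log2 change of 0.02 ± 0.13. IAA1, IAA7 and IAA29 did not pass, at −0.70 ± 0.33, −0.30 ± 0.14 and −0.51 ± 0.47. Replicate 1 of asil2-1 was the lowest of its group for each of the 10 genes, for example 2.17 CPM of IAA1 beside 7.56 and 8.08. Without it 2 genes, IAA5 and IAA17, remained called, and without Col-0 replicate 3 the count was 3.

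In the libraries labelled asil1-1 asil2-1, where ASIL2 RNA was above Col-0, all genes but IAA6 fell against Col-0, 9 of 10, and 0 rose, where 18.8% of all tested genes were called lower and 20.5% higher. The median log2 change was −1.10, against 0.017 for all genes tested, and none of the 10 genes overlapped between the groups. IAA17 read 26.1, 16.6 and 20.9 CPM, with a log2 change of −1.01 ± 0.17 (adjusted p = 0.000108). IAA14 read 4.52, 5.61 and 6.76 CPM, with a log2 change of −1.38 ± 0.26 (adjusted p = 0.000346). IAA29, a gene that PIF factors and shade induce, read 6.01, 4.15 and 5.64 CPM in Col-0 and 2.01, 0.782 and 1.99 CPM in the double mutant. Its log2 change was −1.73 ± 0.51 (adjusted p = 0.0114), or 3.32-fold lower.

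IAA7, or AXR2, the most abundant of the 10 in Col-0, moved least among the genes that fell apart from IAA2. It read 163, 167 and 189 CPM in Col-0 and 126, 120 and 132 CPM in asil1-1 asil2-1, with a log2 change of −0.46 ± 0.14 (adjusted p = 0.0108). IAA2 fell with a log2 change of −0.36 ± 0.13 (adjusted p = 0.0351), IAA3 with −0.69 ± 0.19 (adjusted p = 0.00716), IAA1 with −1.09 ± 0.34 (adjusted p = 0.0164) and IAA19 with −1.12 ± 0.40 (adjusted p = 0.0329). IAA5 had 4, 0 and 1 counts, with a log2 change of −2.88 ± 0.73 (adjusted p = 0.00391). IAA6 did not pass, at −1.29 ± 0.57 (adjusted p = 0.0781). Without replicate 2 of the double mutant, the lowest of its group in summed level, the count was 5.

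The 3 comparisons above share the Col-0 libraries, so a high value in Col-0 enters all of them. The Landsberg erecta groups give comparisons that do not. In asil2-2 against Ler 4 of the 10 genes fell, IAA1, IAA2, IAA6 and IAA29, and 0 rose, where 3.57% of all tested genes were called lower and 2.39% higher. The median log2 change was −0.62, against −0.001 for all genes tested, and 5 genes did not overlap. IAA2 read 76.6, 85.7 and 98.7 CPM in Ler and 40.9, 46.8 and 46.2 CPM in asil2-2. Each asil2-2 library was below each Ler library, with a log2 change of −0.97 ± 0.13 (adjusted p = 0.000168), or 1.95-fold lower.

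IAA1 read 10.6, 11.4 and 14.5 CPM in Ler and 5.08, 4.78 and 6.29 CPM in asil2-2, without overlap, with a log2 change of −1.18 ± 0.32 (adjusted p = 0.0333). IAA29 read 2.65, 5.78 and 9.84 CPM in Ler and 1.81, 1.19 and 1.82 CPM in asil2-2, with a log2 change of −1.98 ± 0.48 (adjusted p = 0.0182). The groups stayed apart although Ler itself spread widely. IAA6 read 2.8, 2.05 and 3.13 CPM in Ler and 0.653, 0.368 and 1.28 CPM in asil2-2, with a log2 change of −1.77 ± 0.51 (adjusted p = 0.0407). IAA3, IAA5, IAA7, IAA14 and IAA17 overlapped and did not pass, with log2 changes between −0.31 ± 0.25 for IAA14 and 0.07 ± 0.14 for IAA7. IAA19 was at −0.93 ± 0.37 without passing. The count of 4 became 2 without replicate 1 of asil2-2 or replicate 2 of Ler, and 1, IAA2, without replicate 2 of asil2-2 or replicate 3 of Ler.

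In the libraries labelled asil1-1 asil2-2, where ASIL2 RNA was above Ler, 7 of the 10 genes fell against Ler and 0 rose, where 13.5% of all tested genes were called lower and 14.8% higher. The median log2 change was −0.83, against −0.014 for all genes tested. IAA2 read 37.1, 52.4 and 46 CPM, with a log2 change of −0.95 ± 0.13 (adjusted p = 1.53e-05). IAA29 read 1.17, 1.42 and 1.91 CPM, with a log2 change of −2.07 ± 0.49 (adjusted p = 0.00361), and IAA6 read 0.55, 0.554 and 0.147 CPM, with −2.60 ± 0.56 (adjusted p = 0.0013). These libraries all lay below the lowest Ler library.

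IAA19, or MSG2, which acts in bending of the hypocotyl, read 6.07, 6.21 and 10.3 CPM in Ler and 2.06, 3.08 and 3.17 CPM in asil1-1 asil2-2, with a log2 change of −1.45 ± 0.38 (adjusted p = 0.00723). IAA1 fell with −1.49 ± 0.33 (adjusted p = 0.00206), IAA3 with −0.62 ± 0.18 (adjusted p = 0.0152) and IAA14 with −0.72 ± 0.26 (adjusted p = 0.0391). IAA5, IAA7 and IAA17 overlapped with Ler and did not pass. IAA7 read 78.3, 91.3 and 123 CPM in Ler and 116, 124 and 127 CPM in asil1-1 asil2-2, a log2 change of 0.33 ± 0.14 (adjusted p = 0.075). It was called higher under library-size scaling (0.49, adjusted p = 0.00507), by DESeq2 (0.34, adjusted p = 0.0484), with the replicate number as a block (0.34, adjusted p = 0.0376), with a root score as a covariate (0.365, adjusted p = 0.031) and without Ler replicate 3 (0.53, adjusted p = 0.00626).

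Against Col-0, whose libraries also serve the Columbia-0 comparisons, the same double mutant had 7 genes lower and 0 higher, where 15.5% of all tested genes were called lower and 16.7% higher, with a median log2 change of −1.08 against 0.015 for all genes tested. IAA7 was called lower here, at −0.50 ± 0.14 (adjusted p = 0.00745), and not against Ler. IAA17 passed against neither wild type, at −0.25 ± 0.16 against Col-0 and 0.15 ± 0.16 against Ler, and its 35.6, 40.8 and 30.9 CPM overlapped with both.

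**Figure D2:**
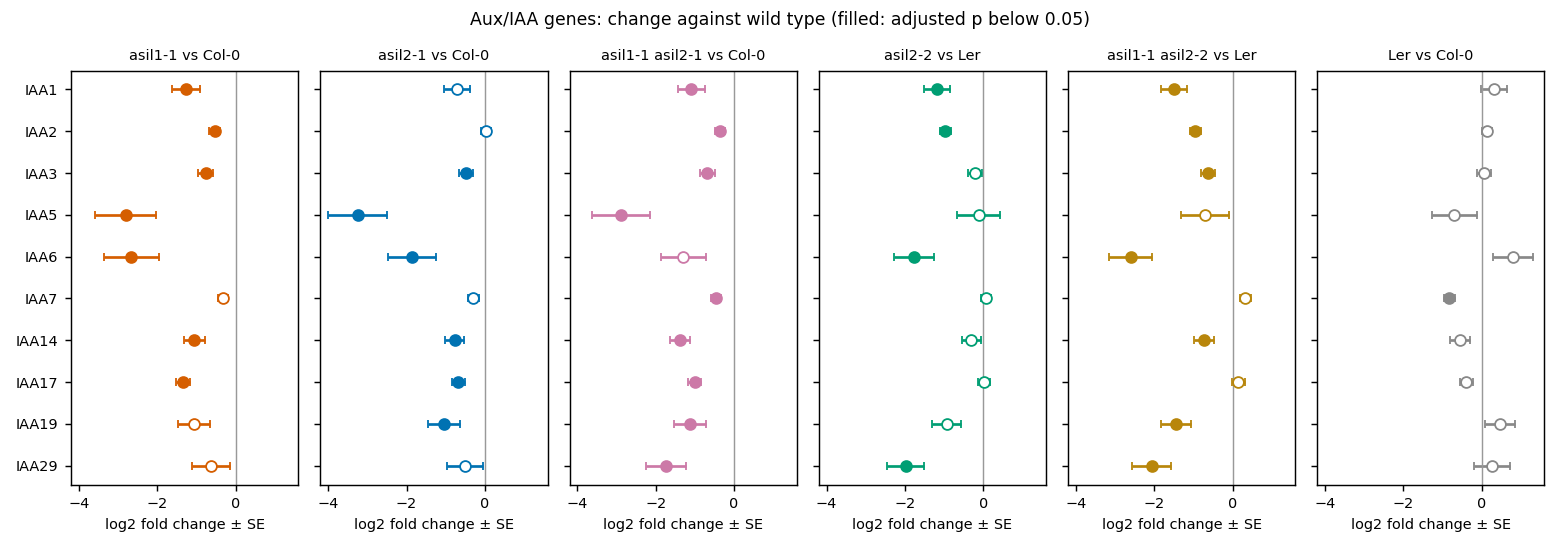
Log2 fold change ± SE (x axis) of the 10 genes in 6 comparisons; filled points have an adjusted p below 0.05. Values lie left of 0 for nearly all mutants, and IAA5 and IAA6 reach beyond −2 in asil1-1, while Ler against Col-0 has IAA7 as its single filled point.

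Over the 6 comparisons of a mutant with a wild type, 55 of 60 fitted values were below 0, 40 were called lower and 0 higher by edgeR. These comparisons share wild-type libraries, so the 60 values are not independent and their common direction is a description. At an unadjusted p below 0.05, 1 value was higher, IAA7 in asil1-1 asil2-2 against Ler. IAA1, IAA2, IAA3, IAA6 and IAA14 were called lower in 5 of the 6 comparisons, IAA29 in 4, IAA5, IAA17 and IAA19 in 3, and IAA7 in 2. Of these comparisons 7 pairs have no library in common, and the genes called lower in both are given for each as a description, beside the same share over all genes called lower.

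The asil2 alleles, asil2-1 against Col-0 and asil2-2 against Ler, had the fewest in common, IAA6 alone, 16.7% of the first list and 25.0% of the second (2.7% and 14.4% over all genes). asil1-1 and asil2-2 had IAA1, IAA2 and IAA6 in common, 42.9% and 75.0% (3.9% and 9.2% over all genes). asil1-1 and asil1-1 asil2-2 against Ler had IAA1, IAA2, IAA3, IAA6 and IAA14 in common, 71.4% of each list (10.8% and 6.7% over all genes). These 3 pairs thus ranged from 1 gene to 5.

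asil2-1 and asil1-1 asil2-2 against Ler had IAA3, IAA6, IAA14 and IAA19 in common, 66.7% and 57.1% (14.0% and 20% over all genes). asil1-1 asil2-1 and asil2-2 had IAA1, IAA2 and IAA29 in common, 33.3% and 75.0% (4.2% and 21.9% over all genes). The double mutants, against Col-0 and Ler respectively, had IAA1, IAA2, IAA3, IAA14, IAA19 and IAA29 in common, 66.7% and 85.7% (15.5% and 21.5% over all genes). The 4 genes called in asil2-2 were all called in asil1-1 asil2-2 against Col-0, 57.1% of that list (28.9% and 6.7% over all genes).

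The wild types themselves differed in 1 of the 10 genes. IAA7 read 78.3 to 123 CPM in Ler against 163 to 189 in Col-0, with a log2 change of −0.82 ± 0.14 (adjusted p = 7.24e-05). Of all tested genes 18.3% were called lower and 17.9% higher in Ler, and the median log2 change of the 10 was 0.09 against 0.021 for all genes tested. IAA17 and IAA14 leaned the same way without passing, at −0.40 ± 0.16 and −0.56 ± 0.25. IAA17 was called lower by DESeq2 and under RLE scaling, at −0.43 in both, and IAA6 higher, at 1.29, once the trend with transcript length was removed. Reads from Ler were counted on a Columbia-based genome, and the part of this in IAA7 was not tested.

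Set against a single mutant, the libraries labelled as double mutants had 0 of the 10 genes called in each of the 3 comparisons by edgeR, and 0 by DESeq2. For asil1-1 asil2-1 against asil1-1, 6.21% of all tested genes were called higher and 9.43% lower. The median of the 10 was 0.01, and 1 gene, IAA29 at −1.10 ± 0.52, had an unadjusted p below 0.05. Against asil2-1, 3.17% of all genes were called higher and 3.04% lower, the median of the 10 was −0.26 and 3 genes had an unadjusted p below 0.05. These were IAA2 at −0.39 ± 0.13, IAA14 at −0.61 ± 0.26 and IAA29 at −1.23 ± 0.51. For asil1-1 asil2-2 against asil2-2, 13.4% were called higher and 9.85% lower, the median was −0.36 and 1 gene, IAA3 at −0.40 ± 0.18, had an unadjusted p below 0.05. Calls that appear without 1 library or under another setting are given in the closing section.

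Whether the asil1-1 and asil2-1 changes add up in the double mutant was tested on the log2 scale, where 2.22% of all tested genes were called above the sum of the single changes and 2.33% below it. Of the 10 genes 1 was called, IAA17. Its changes of −1.35 in asil1-1 and −0.68 in asil2-1 compare with −1.01 in asil1-1 asil2-1, a departure of 1.02 ± 0.24 (adjusted p = 0.0231). The double mutant libraries, at 16.6 to 26.1 CPM, overlapped with those of both single mutants. The call was lost without replicate 1 of asil1-1 asil2-1, replicate 2 or 3 of asil1-1, replicate 1 of asil2-1 or replicate 1 or 2 of Col-0, with an adjusted p of up to 0.082 and 0 of the 10 genes called. The median departure of the 10 was 0.73, against −0.032 for all genes tested. Col-0 enters the departure with a plus sign, so a high Col-0 value raises it in genes that are lower in every mutant. The largest departures, 3.175 ± 1.342 for IAA5 and 3.239 ± 0.962 for IAA6, did not pass. They rest on mutant groups with 4 to 25 counts in total, where a further fall would be hard to see.

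The asil2 alleles differ in allele and in ecotype, which cannot be told apart here. The change in asil2-2 against Ler was larger than that in asil2-1 against Col-0 in the higher direction for 10.6% and in the lower direction for 12.1% of all tested genes, and for 2 and 1 of the 10 genes. IAA2 was called lower in asil2-2 and not in asil2-1, a difference of −0.99 ± 0.19 (adjusted p = 0.000667). IAA5 and IAA17 were called lower in asil2-1 and not in asil2-2, with differences of 3.13 ± 0.96 (adjusted p = 0.0224) and 0.70 ± 0.23 (adjusted p = 0.0339). IAA29 had a change of −1.98 in asil2-2 and −0.51 in asil2-1, but the difference of −1.47 ± 0.67 did not pass (adjusted p = 0.118). With the trend on transcript length removed IAA2 alone was called, at −1.05.

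**Figure D3:**
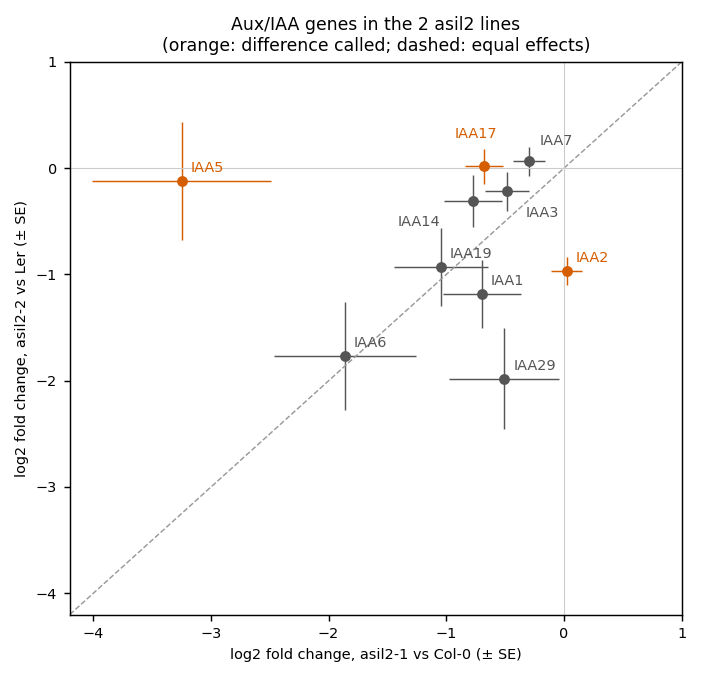
Log2 fold change ± SE in asil2-1 against Col-0 (x axis) and in asil2-2 against Ler (y axis) for the 10 genes, with a dashed line where both are equal. IAA5 and IAA17 lie above the line and IAA2 below it, the 3 genes whose difference was called.

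Other auxin genes were followed in lists taken from general knowledge of the pathway, by the number of members that rose and fell. Numbers are given for 5 comparisons, in the order asil1-1, asil2-1, asil1-1 asil2-1 (each against Col-0), asil2-2 and asil1-1 asil2-2 (each against Ler). In that order 8.91%, 21.9%, 20.5%, 2.39% and 14.8% of all tested genes were called higher and 8.35%, 19.3%, 18.8%, 3.57% and 13.5% lower, and each count below stands beside those shares. A trend with transcript length, described further below, was left in these values. Short transcripts stood above long ones by 0.77 to 1.08 log2 in Col-0. They stood below them in asil2-1 (−0.63 to −0.47) and asil1-1 asil2-1 (−0.42 to −0.34). The part of this trend in the changes of long or short transcripts of these lists is not given here. Of the other 19 Aux/IAA genes 13 could be tested. Of these 3, 3, 3, 0 and 1 fell and 0, 1, 1, 0 and 1 rose, with medians between −0.24 and −0.02. The 3 of 13 that fell are 23.1%, near the share over all genes in asil2-1 and asil1-1 asil2-1. IAA28, a repressor of lateral root formation, fell with a log2 change of −1.03 ± 0.28 in asil1-1 (adjusted p = 0.0161) and −0.89 ± 0.27 in asil2-1 (adjusted p = 0.0122). Col-0 libraries spread from 8.24 to 18.9 CPM of IAA28. The lowest of them overlapped with asil1-1, at 6.85 to 8.38 CPM, and with asil2-1, at 8.12 to 8.51 CPM. IAA13 fell in asil1-1 asil2-1 at −0.57 ± 0.12 (adjusted p = 0.000925), and IAA18 rose in asil2-1 at 0.52 ± 0.12 (adjusted p = 0.00152). IAA4, a close relative of IAA3, fell in asil1-1 asil2-2 at −0.76 ± 0.13 (adjusted p = 0.000117). IAA15 was listed at 0 in all groups but Ler, where it had 1 count, IAA31 was at 0 in asil1-1 asil2-1, and IAA33 was at 0 there and in asil2-1.

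Partners of the repressors were counted next. Of 15 ARF genes 1, 4, 3, 1 and 0 rose and 0, 0, 0, 0 and 4 fell. The shares that rose in the first 4, 6.67%, 26.7%, 20% and 6.67%, lie near those over all genes or rest on 1 gene. ARF7, the activator of lateral root and tropism responses, rose in asil2-1 at 0.55 ± 0.14 (adjusted p = 0.00357), and ARF6 rose in asil1-1 at 0.46 ± 0.13 (adjusted p = 0.0183). ARF11 fell in asil1-1 asil2-2 at −1.10 ± 0.20 (adjusted p = 0.000304). Of the 6 receptor genes TIR1 and AFB1 to AFB5, 4 rose in asil2-1, by 0.25 to 0.40, AFB1 fell in both double mutants at −0.49 ± 0.14 and −0.50 ± 0.14, and none passed the test in asil1-1 or asil2-2.

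Among 10 genes for SCF subunits and corepressors, 2, 6, 5, 1 and 2 rose and 0, 2, 2, 0 and 0 fell. TPL, the founding corepressor, rose in the 3 Columbia-0 mutants at 0.58 ± 0.13 (adjusted p = 0.00505), 0.72 ± 0.13 (adjusted p = 0.000225) and 0.65 ± 0.13 (adjusted p = 0.000574). AXR1, which activates the cullin of the SCF, rose in each of the 5 mutants, by 0.35 to 0.64. ASK1 and RBX1, small SCF subunits, fell in asil2-1 at −0.73 ± 0.08 and −0.94 ± 0.15. They were also lower in Ler than in Col-0, at −0.59 ± 0.08 and −0.99 ± 0.15.

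Of 13 tested early auxin response genes other than Aux/IAA, 7, 7, 9, 1 and 3 fell and 0, 1, 0, 0 and 2 rose, with medians of −0.99, −1.45, −1.82, −0.23 and −0.48. HAT2, an auxin-induced homeobox gene, fell in asil1-1 at −0.85 ± 0.17 (adjusted p = 0.00273), in asil2-2 at −0.86 ± 0.16 (adjusted p = 0.00244) and in asil1-1 asil2-2 against Ler at −1.20 ± 0.16 (adjusted p = 1.06e-05). SAUR15 fell in asil2-1 at −2.79 ± 0.46 (adjusted p = 8.53e-05) and in asil1-1 asil2-1 at −3.52 ± 0.50 (adjusted p = 1.76e-05). These rest on 14 and 8 counts of SAUR15 over 3 libraries, against 65 in Col-0. The SAUR19 to SAUR24 genes are near-identical copies, and their single values, such as −3.59 ± 0.44 for SAUR20 in asil2-1, are uncertain for that reason. Each of them also enters the counts and medians of this list as a separate gene, so those in part repeat 1 group of copies. GH3.2, which conjugates auxin to amino acids, fell in asil1-1 at −1.31 ± 0.36 (adjusted p = 0.0176) and rose in asil1-1 asil2-2 against Ler at 2.52 ± 0.34 (adjusted p = 9.79e-06). In Ler against Col-0, 6 of the 13 tested genes of this list were lower and 2 higher, where 18.3% of all tested genes were called lower and 17.9% higher. GH3.1 was at 0 in asil1-1 asil2-1, SAUR10 in asil1-1, LBD29 in 4 groups and GH3.4 in all groups but Ler and asil2-2.

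Of 7 tested auxin synthesis genes 2, 1, 4, 1 and 2 fell and 0, 1, 0, 0 and 0 rose. YUC6, a flavin monooxygenase of auxin synthesis, fell in asil1-1 at −0.85 ± 0.22 (adjusted p = 0.0107), in asil2-1 at −0.66 ± 0.21 (adjusted p = 0.0146), in asil1-1 asil2-1 at −0.83 ± 0.21 (adjusted p = 0.00356) and in asil1-1 asil2-2 at −0.90 ± 0.21 (adjusted p = 0.00251). YUC5 was called higher in asil2-1 (adjusted p = 0.000503), with 69 counts over its 3 libraries against 3 over those of Col-0, too few for a fold. YUC7, YUC11 and TAR1 were at 0 in at least 1 group. Of 14 auxin transport genes 4, 5, 8, 1 and 5 fell and 0, 0, 0, 0 and 1 rose. LAX2, an influx carrier, fell in asil1-1 at −1.20 ± 0.28 (adjusted p = 0.00806), and the efflux carrier gene PIN7 fell in asil1-1 asil2-1 at −0.82 ± 0.16 (adjusted p = 0.000538) and in asil1-1 asil2-2 at −0.68 ± 0.16 (adjusted p = 0.00302). PIN8 was at 0 in 4 groups.

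The PIF and shade list holds factors such as PIF4 and PIF7, which induce IAA19 and IAA29 in shade, and their inhibitors. Its 9 genes had 0, 2, 4, 2 and 9 members that fell and 0, 2, 0, 0 and 0 that rose. PIF7 fell in asil2-2 at −0.74 ± 0.13 (adjusted p = 0.00178) and in asil1-1 asil2-2 at −0.91 ± 0.14 (adjusted p = 2.69e-05), and PIF4 at −0.73 ± 0.19 (adjusted p = 0.0272) and −0.85 ± 0.19 (adjusted p = 0.00253). HFR1, an inhibitor of PIF factors that shade induces, fell in asil1-1 asil2-2 at −1.86 ± 0.30 (adjusted p = 7.07e-05). Beside the calls of PIF4, which fell in asil1-1 asil2-1, asil2-2 and asil1-1 asil2-2, IAA29 was called lower in the same 3 groups. IAA19 was called lower in asil1-1 asil2-1 (adjusted p = 0.0329) and asil1-1 asil2-2 (adjusted p = 0.00723), where PIF4 fell too. It was also called lower in asil2-1 (adjusted p = 0.0414), where PIF4 did not pass at −0.15 ± 0.19. In asil2-2, where PIF4 fell, IAA19 did not pass (adjusted p = 0.139). Its changes in asil2-1 and asil2-2, −1.05 and −0.93, were not called different (0.11 ± 0.54, adjusted p = 0.902). A part of PIF4 in these values was not tested.

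**Figure D4:**
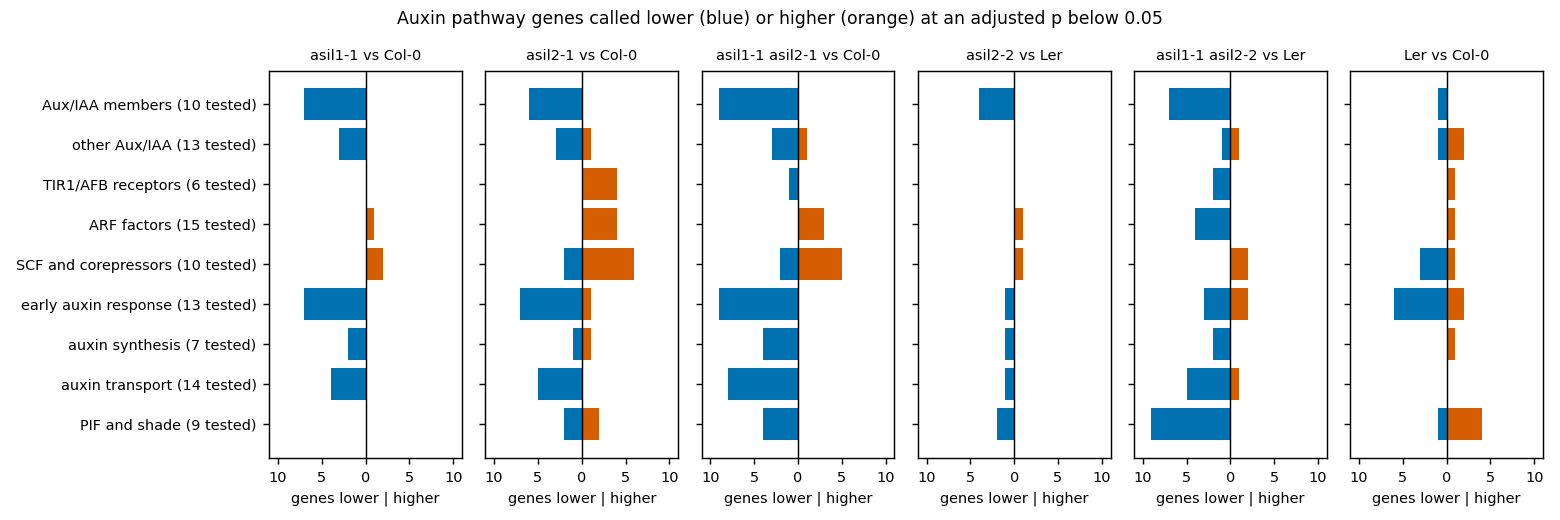
Number of genes called lower (bars to the left) or higher (bars to the right) at an adjusted p below 0.05 in 9 lists of auxin genes and 6 comparisons; the tested members of each list are in brackets. The Aux/IAA genes described here have bars to the left alone in all 5 mutants, and the PIF and shade list has 9 of 9 to the left in asil1-1 asil2-2.

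Root, leaf and shoot markers and transcript length moved with the groups too. Of 16 tested root markers (21 listed), 10, 6, 9, 0 and 1 fell and 1, 1, 1, 0 and 1 rose in the 5 mutants, with medians of −2.50, −1.55, −2.0, −0.57 and 0.22. Col-0 libraries held 105 to 202 CPM of them in sum, asil1-1 libraries 82.8 to 90.9, asil2-1 libraries 103 to 113 and their double mutant 96.2 to 132. Sums were 103 to 154 CPM in Ler, 99.4 to 124 in asil2-2 and 129 to 168 in asil1-1 asil2-2. SCR, the most abundant of the list, makes up much of these sums and was at 45.1 ± 0.609 CPM in Col-0 against 65.0 ± 2.14, 70.1 ± 9.33 and 82.9 ± 4.38 in the 3 Columbia-0 mutants, opposite to the medians. Between 1 and 6 of the root markers were at 0 in a library, which includes a marker without counts in any library. CASP5 was at 0 in all Col-0 and all asil1-1 asil2-2 libraries. Col-0 replicate 3 had a root score of 0.22, the mean centred log2 level of the markers, against up to 1.58 in the other Col-0 libraries. It had the highest summed level of the 10 Aux/IAA genes, 395 CPM, of which IAA7 made up 189 and IAA2 95.7. The mean centred log2 level of the 10 was 0.84 there, against 0.74 and 0.59 in replicates 1 and 2. Their median was 0.71 there, against 0.74 and 0.64.

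With the root score as a covariate, 2 of the 10 genes were called lower for asil1-1, 5 for asil2-1 and 6 for their double mutant, against 4 for asil2-2 and 7 for asil1-1 asil2-2 relative to Ler. Over all genes the shares called lower were then 0.669%, 14.2%, 12.2%, 6.6% and 14.7%, so that calls in asil1-1 dropped over the whole table as well. The median change of the 10 in asil1-1 was then −0.98, and IAA2 and IAA17 kept their calls. Against Col-0 replicate 3 as the lone Col-0 library, assumed to vary like the other groups, the counts were 2, 1 and 6 in the Columbia-0 mutants, with medians of −1.01, −0.63 and −1.19, where 0.255%, 10.5% and 10.3% of all genes were called lower.

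The 7 leaf mesophyll markers summed to 30100 to 38000 CPM in Col-0, 25700 to 31400 in asil1-1, 16100 to 21300 in asil2-1 and 17800 to 20300 in asil1-1 asil2-1, and 3, 7 and 6 of them fell. They summed to 25000 to 26800 CPM in Ler, 20400 to 26700 in asil2-2 and 16600 to 19300 in asil1-1 asil2-2, where 1 and 5 fell, and none was at 0. The 4 shoot meristem markers summed to 17.1 to 23 CPM in Col-0, 12.1 to 14.2 in asil1-1, 9.92 to 14.1 in asil2-1 and 7.5 to 22.2 in asil1-1 asil2-1, and to 18.5 to 25.5 in Ler, 29.6 to 35.2 in asil2-2 and 20.7 to 22.3 in asil1-1 asil2-2. Of the 2 that could be tested 1 fell in asil2-1 and none passed in the other 4 comparisons. WUS was at 0 throughout asil2-1 and Ler, and CLV3 throughout Ler, asil1-1 asil2-2, asil2-1 and asil1-1. The part of leaf and meristem share in the Aux/IAA values was not tested.

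The transcripts of the 10 genes have 781 to 1908 exonic bases. Short transcripts (under 800 bases) stood above long ones (over 4000 bases) in Col-0, by 0.77 to 1.08 in centred log2 level, and below them in asil2-1, by −0.63 to −0.47. With a length trend removed from each library, 7 genes were called lower for asil1-1, 3 for asil2-1, 6 for their double mutant, 4 for asil2-2 and 7 for asil1-1 asil2-2 relative to Ler, where 7.7%, 13.5%, 14.2%, 3.67% and 19.1% of all genes were called lower. The median change was then −0.94, −0.42 and −0.73 in the 3 Columbia-0 mutants. The asil2-1 calls that were lost were IAA3, IAA6 and IAA19.

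**Figure D5:**
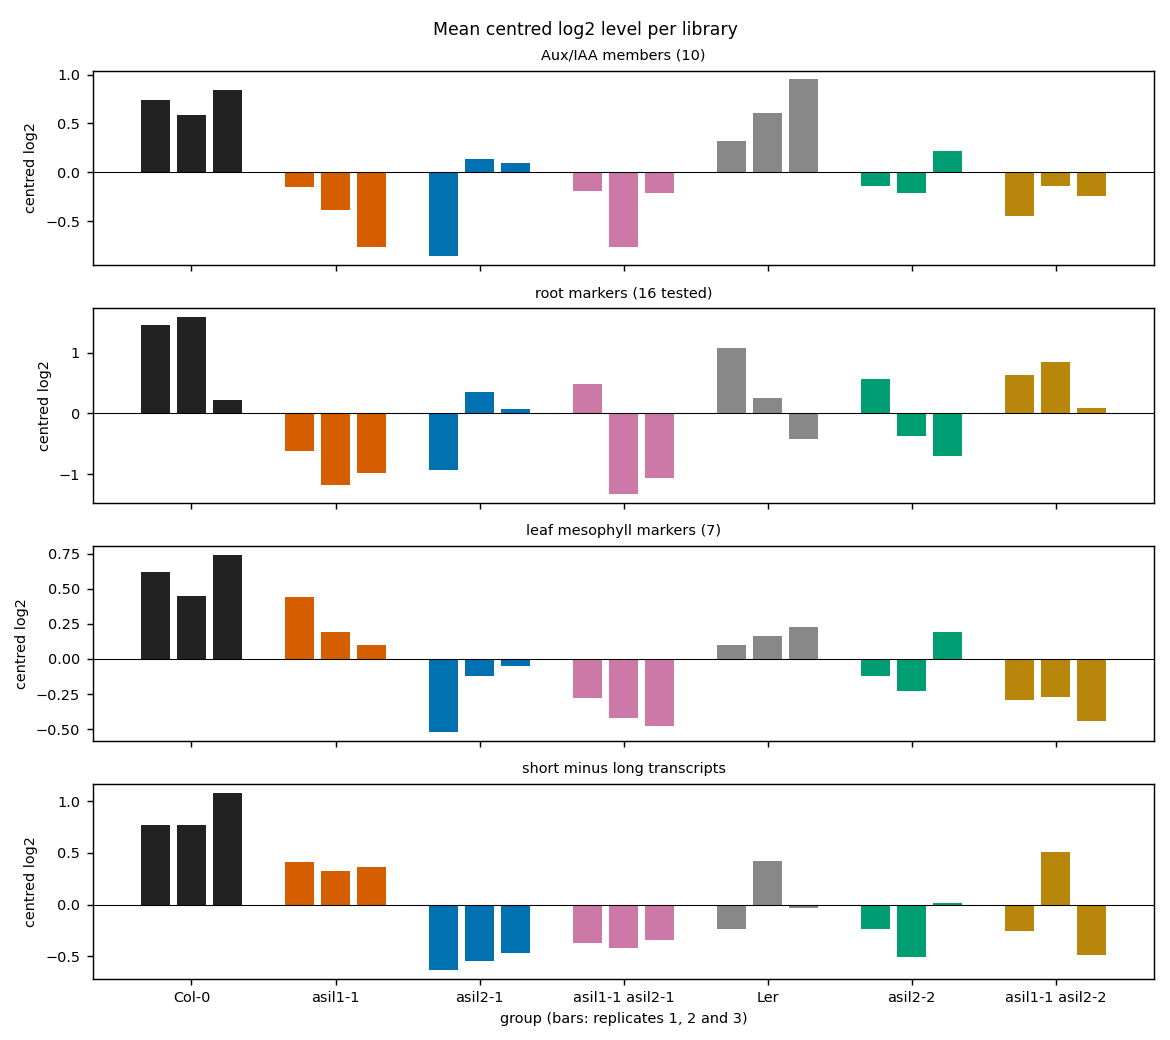
Mean centred log2 level (y axes) per library of the 10 Aux/IAA genes, the root markers and the leaf mesophyll markers, and the excess of short over long transcripts, with 3 bars a group for replicates 1 to 3. Col-0 libraries are above 0 in all 4 panels, asil1-1 libraries are below 0 for the Aux/IAA genes and the root markers, and root scores of asil2-2 and asil1-1 asil2-2 overlap with those of Ler.

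The genes with the most similar profiles were found by the root mean square difference of centred log2 CPM over the 21 libraries, a description to which all libraries contribute and in which flat profiles lie closer. Within the 10, IAA3 and IAA14 were each other's closest, at 0.342 log2 units, and so were IAA1 and IAA19, at 0.392. IAA17 was closest to IAA3 at 0.346, not IAA1 or IAA14. IAA7 was closest to IAA2 at 0.431, and IAA2 to IAA3 at 0.414, while IAA29 and IAA6 were closest to IAA1 at 0.527 and 0.664 and IAA5 to IAA17 at 0.662. Of the 3 neighbour pairs on the chromosomes, none was a mutual closest pair. Among other genes, IAA1 was nearest to FUM2 (0.347) and HAT2 (0.354), IAA2 to MAPKKK14 (0.213) and COL5 (0.218), and IAA3 to BEH1 (0.182) and to the receptor gene AFB1, listed as GRH1 (0.199). IAA5 was nearest to SAUR29 (0.387) and GDU2 (0.424), IAA6 to NIP6;1 (0.669) and SAUR24 (0.703), and IAA7 to CIPK7 (0.151) and UBC9 (0.166). IAA14 was nearest to LHCB5 (0.273) and PSAD-2 (0.274), IAA17 to SGP1 (0.223) and PLC4 (0.229), IAA19 to HB28 (0.372) and BZIP61 (0.411), and IAA29 to COR413IM1 (0.449) and LHB1B1 (0.489).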

How the data were processed

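The deposited files hold the authors' raw read counts per gene model, without a header line and listing only loci with at least 1 count; other loci were set to 0. The submitters' processing notes name Bowtie 0.12.7, edgeR 3.0.8 and the build TAIR10, without their roles. How reads were assigned to genes, with or without strand, and what became of reads with several matches were not given in the sources used here. Per the labels' protocols, 5 ug of total RNA went into each polyA library.

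Groups were taken from the labels' genotype. Model suffixes were removed from locus names, and 23867 of 24100 loci were found in the RefSeq gene table. The deposited counts entered edgeR 4.0.16 under R 4.3.3. Low-count loci were removed with filterByExpr, which left 19589 and dropped 4511. After TMM scaling, a robust quasi-likelihood model with a mean for each of the 7 groups used the 21 libraries together and left 14 residual degrees of freedom. It was tested on simulated data first. Benjamini-Hochberg adjustment ran over all 19589 loci within each comparison, and calls needed an adjusted p below 0.05. The SE of a log2 fold change was its size divided by the root of the F statistic.

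The alternatives were RLE and library-size scaling, other filters on low counts, DESeq2 1.42.0, a model restricted to the groups compared, a replicate block, a length offset (a lowess trend of log CPM on exonic length), the root score as a covariate, Col-0 replicate 3 alone, and leaving out each library. The 10 genes and all lists were chosen with earlier results of these data known. All 10 genes are named. Of the other lists up to 3 genes are named per comparison by smallest p among those past the threshold, besides ASIL1, ASIL2 and list genes at 0 in a whole group. Marker lists are given as counts, medians and sums, with markers at 0 in a whole group named. List genes and markers without counts in any library are not named. Where a range is given, or SCR or SAUR, AFB, TPL, IAA or YUC genes are named beyond that rule, they were chosen after their values were seen. For similar profiles the closest of the 10 and the 2 closest other genes with a symbol are given. Promoters were read from TAIR10.1, since the files carry no coordinates, and protein sequences were not used here. Counting error alone sets the limit given by 3 counts.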

Additional observations from a re-analysis of the deposited data

Results flagged for a closer look

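For 4 results a test of the difference between effects passed an adjusted p of 0.05 (edgeR quasi-likelihood test). The departure of IAA17 from additivity of asil1-1 and asil2-1 was 1.02 ± 0.24 on the log2 scale (adjusted p = 0.0231). It was 0.66 (adjusted p = 0.17) with the root score as a covariate and 0.80 (adjusted p = 0.321) with Col-0 replicate 3 as the lone Col-0 library.

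The change in asil2-2 against Ler minus that in asil2-1 against Col-0 was −0.99 ± 0.19 for IAA2 (adjusted p = 0.000667), and this call held in all fits made. The same difference was 3.13 ± 0.96 for IAA5 (adjusted p = 0.0224), with 4 counts in all 3 asil2-1 libraries, and 0.70 ± 0.23 for IAA17 (adjusted p = 0.0339). With the length offset IAA5 gave 2.53 (adjusted p = 0.0706) and IAA17 gave 0.61 (adjusted p = 0.0538). Causes of these differences were not tested.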

How the results depend on the processing

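Of the 60 fitted values in the 6 comparisons of a mutant with a wild type, 55 were below 0, and 55 or 56 were below 0 under RLE scaling, library-size scaling, DESeq2, the length offset, the root score and the replicate block. Values called lower numbered 40 in the main fit and 41, 35, 43, 31, 31 and 39 under these settings, in that order. No called value changed sign. The counts of the 10 genes called that moved by over 1.5 times were as follows, with the cause not tested. With the root score as a covariate asil1-1 against Col-0 went from 7 to 2, the departure from additivity from 1 to 0 and asil1-1 asil2-1 against asil2-1 from 0 to 1. Calls over all genes went from 3382 to 407 in asil1-1 and from 892 to 67 for the departure from additivity. With Col-0 replicate 3 alone, where 192 genes in all were called in asil1-1 and 0 for the departure from additivity, asil1-1 gave 2, asil2-1 1 in place of 6, asil1-1 asil2-2 against Col-0 3 in place of 7, the departure from additivity 0 and the difference between the asil2 lines 1 in place of 3. With the length offset asil2-1 gave 3, asil1-1 asil2-2 against Col-0 4, the difference between the asil2 lines 1, Ler against Col-0 2 in place of 1, and asil1-1 asil2-2 against asil2-2 1 in place of 0. Ler against Col-0 gave 2 under RLE scaling and with DESeq2, and 3 when fitted alone. Library-size scaling gave 1 for asil1-1 asil2-2 against asil2-2, DESeq2 2 for the departure from additivity, and the fit of the groups alone 1 for asil1-1 asil2-1 against asil2-1.

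Leaving out 1 library in turn gave 3 to 8 genes in asil1-1, 2 to 6 in asil2-1, 5 to 9 in asil1-1 asil2-1, 1 to 5 in asil2-2, 5 to 7 in asil1-1 asil2-2 against either wild type, 1 to 2 in Ler against Col-0, 0 in asil1-1 asil2-1 against asil1-1, 0 to 2 against asil2-1, 0 to 1 in asil1-1 asil2-2 against asil2-2, 0 to 2 for the departure from additivity and 2 to 3 for the difference between the asil2 lines. The 2 genes against asil2-1 appeared without its replicate 1, and the single gene against asil2-2 without its replicate 1 or 3. Replicate numbers do not pair the libraries: in 0 of 21 pairs of groups did all same-numbered libraries deviate together (r between −0.40 and 0.37). With the replicate block the counts were 7, 5, 9, 4 and 8 in asil1-1, asil2-1, asil1-1 asil2-1, asil2-2 and asil1-1 asil2-2 against Ler, the last with IAA7 called higher among the 8, and 1 in asil1-1 asil2-1 against asil2-1 in place of 0.

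Scaling by library size moved the median of all genes to 0.139 and 0.153 in asil1-1 asil2-2 against Ler and Col-0 and to 0.16 in asil1-1 asil2-1 against asil1-1, and the shares of all genes called higher and lower to 22.8% and 7.52%, 27.6% and 11%, and 15.1% and 6.59%. In asil2-2 against Ler they became 3.98% and 2.88%, and in asil1-1 asil2-2 against asil2-2 17.5% and 6.07%. Depth limits IAA5 and IAA6 most, with 0 to 2 counts of IAA5 in each asil1-1 and asil2-1 library.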
